A study of Rattus norvegicus with 12 samples.

Results

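Transcripts of 8 fatty acid desaturases and elongases were followed in the livers of adult male Wistar rats: the desaturases Scd, Fads1, Fads2 and Fads3 and the elongases Elovl1, Elovl2, Elovl5 and Elovl6. The genes were chosen by function, and every array probe whose RefSeq accession belongs to one of them was taken, which gave 10 of the 45598 probes on the array and 8 of the 21858 genes tested. Rats of the control group ate a diet with 14% casein and rats of the low protein group a diet of equal energy with 5% casein, each for 4 weeks, with 6 rats per diet. Liver RNA of each rat was hybridised to its own single-colour array, and the labels name no genetic change, drug or other treatment. Nothing in the labels says whether rats shared a cage, so p-values measure the spread between these rats.

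Desaturases put double bonds into fatty acids bound to coenzyme A, and elongases carry out the first step of the cycle that lengthens such chains in the endoplasmic reticulum. In liver, Scd makes oleate and palmitoleate from saturated chains and Elovl6 lengthens palmitate to stearate, so both act on chains the liver has made itself. Fads2, Elovl5, Fads1 and Elovl2 act one after the other on the essential fatty acids of the diet to give arachidonate and the long omega-3 chains. Many of these genes are known targets of the transcription factor SREBP-1c, the product of Srebf1.

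The genes of polyunsaturated fatty acid synthesis were lower in low protein livers, and the mean changes of all 4 were close. Fads1, Fads2, Elovl2 and Elovl5 fell 1.81-fold to 1.89-fold over all rats. Within array slides their log2 changes lay wider apart, at -1.13 to -0.89 on slide 1 and -0.78 to -0.45 on slide 2. Confidence intervals of their pairwise differences reached from -0.56 to 0.50 on the log2 scale, so unequal falls are not excluded. Scd, Fads3, Elovl1 and Elovl6 did not pass the test. Of the 8 genes, 4 were thus lower and 0 higher at a limma adjusted p under 0.05, where 3.05% of all genes tested were lower and 3.48% higher, 6.53% together. All 8 genes passed the filter on dim probes, and each of their 10 probes was well above background on all 12 arrays. The median log2 change of the 8 was -0.62, beside -0.03 over all genes. In bulk liver RNA, fewer hepatocytes and less RNA per hepatocyte cannot be told apart.

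The stretches of 250 bases before the start of the 4 genes that fell are shown because their mean changes were close and 2 of them are neighbours. Sequences are from RefSeq, assembly GRCr8, which had entries for 7 of the 8 genes. They lie at chr1:216252442-216252691 (plus strand), chr1:216172034-216172283 (minus strand), chr8:87670914-87671163 (plus strand) and chr17:23750100-23750349 (plus strand), the last being the first of the 2 Elovl2 starts in the table. Fads3, Fads2 and Fads1 follow each other on chromosome 1, and Fads1 and Fads2 are read away from each other. Capitals mark matches, on either strand, to the CCAAT box (those letters), the GC box, spelled GGGCGG, or the E-box, spelled CACGTG, and matches of one motif may overlap.
Fads1: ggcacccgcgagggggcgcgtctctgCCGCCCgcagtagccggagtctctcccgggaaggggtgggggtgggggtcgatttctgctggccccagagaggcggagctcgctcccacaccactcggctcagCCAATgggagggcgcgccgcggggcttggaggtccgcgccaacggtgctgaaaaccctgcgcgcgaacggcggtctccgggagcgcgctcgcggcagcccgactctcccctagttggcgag
Fads2: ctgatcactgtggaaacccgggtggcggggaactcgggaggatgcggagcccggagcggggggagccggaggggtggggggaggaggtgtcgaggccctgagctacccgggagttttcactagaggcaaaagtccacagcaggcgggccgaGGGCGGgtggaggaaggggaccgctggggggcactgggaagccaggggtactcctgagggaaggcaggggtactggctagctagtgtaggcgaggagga
Elovl5: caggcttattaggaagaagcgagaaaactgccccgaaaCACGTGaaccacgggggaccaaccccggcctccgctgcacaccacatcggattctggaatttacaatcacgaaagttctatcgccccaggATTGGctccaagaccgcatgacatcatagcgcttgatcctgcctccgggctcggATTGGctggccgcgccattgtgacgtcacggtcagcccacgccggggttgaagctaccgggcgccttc
Elovl2: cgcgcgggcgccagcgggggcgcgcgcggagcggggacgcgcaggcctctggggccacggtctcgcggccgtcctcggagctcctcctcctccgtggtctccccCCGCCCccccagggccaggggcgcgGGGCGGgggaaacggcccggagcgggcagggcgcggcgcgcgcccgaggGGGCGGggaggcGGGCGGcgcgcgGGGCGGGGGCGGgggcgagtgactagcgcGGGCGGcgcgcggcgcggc

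A match describes letters in the window and not a bound site. A CCAAT box stood once in the Fads1 window, 121 to 117 bases before the start, and 2 times in that of Elovl5, and 34.0% of all 33469 windows of this length hold one. GC boxes stood once each in the windows of Fads1 and Fads2 and 7 times in that of Elovl2, against 30.5% of all windows with at least one. The E-box of Elovl5, 212 to 207 bases before the start, is found in 5.59% of windows. The window of Fads3, which did not pass the test, also held 2 CCAAT boxes and 3 GC boxes. Letters like a sterol regulatory element (TCACNCCAC, in 0.974% of windows) were in none of the 8 windows of the 7 genes. The same was true of the direct repeats DR1 and DR4 to which nuclear receptors bind, searched in 1 exact spelling each. These spellings are in 0.0508% (DR1) and 0.00299% (DR4) of windows. Letters as rare as these 3 motifs would be missing from most sets of 8 windows, so their absence says nothing particular about these genes.

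Levels are on a log2 scale on which 0 is the 75th percentile of all processed signals of an array and a difference of 1 is a factor of 2. Levels of different probes are not set against each other, since probes differ in brightness for the same amount of RNA.

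**Figure D1:**
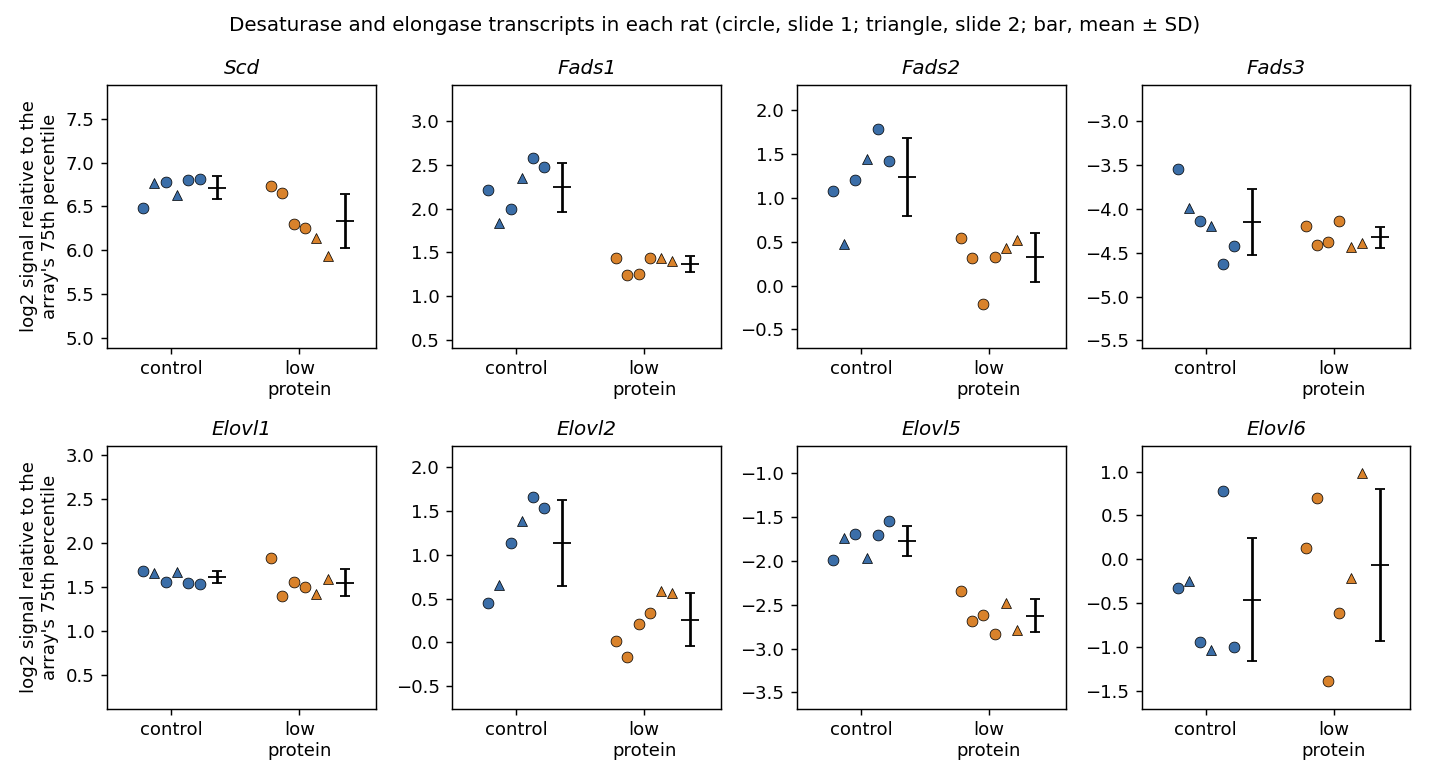
Each panel shows the level of a gene (log2 signal relative to the array's 75th percentile) in the 6 control rats and 6 low protein rats, with 1 point per rat and the mean and SD beside them, and each panel spans the same log2 range. Control and low protein points are apart for Fads1 and Elovl5 and overlap in the other 6 panels, and Elovl6 has the widest spread.

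Fads2 is the delta-6 desaturase, the entry step of the pathway from linoleate and alpha-linolenate. Its level was 0.48 at the lowest, 1.31 at the median and 1.79 at the highest in control rats, and -0.21, 0.38 and 0.54 in low protein rats. The groups overlapped only through control rat 2, whose 0.48 lay below the highest of the low protein values (0.54). Low protein rat 3, at -0.21, lay apart from the other 5 of its group, which were at 0.32 or above. The mean was 1.24 ± 0.44 (SD, n = 6) against 0.32 ± 0.27, a log2 change of -0.92 ± 0.20 (SE, adjusted p = 0.0167, 1.89-fold lower).

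Elovl5 lengthens the product of Fads2. The brighter of its 2 probes gave -1.99, -1.72 and -1.54 (lowest, median and highest) in control rats and -2.83, -2.65 and -2.34 in low protein rats, with every low protein rat below every control rat. This was a log2 change of -0.85 ± 0.11 (SE, n = 6 per diet, adjusted p = 0.000728, 1.81-fold lower). The dimmer probe gave -0.86 ± 0.11 in a fit of all 25688 probes kept (adjusted p = 0.000921), in which 6.69% of probes changed and 3.22% were lower, and its groups did not overlap either. Elovl5 had the smallest adjusted p of the 8 genes.

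Fads1, the delta-5 desaturase, makes arachidonate and eicosapentaenoate. Its level was 1.84, 2.28 and 2.58 (lowest, median and highest) in control rats and 1.24, 1.41 and 1.44 in low protein rats, without overlap. The diets did not overlap in 2 of the 8 genes, Fads1 and Elovl5, both with low protein lower, where 4.99% of all genes tested did not overlap and 1.99% did so with low protein lower. Low protein minus control gave a log2 change of -0.87 ± 0.12 (SE, n = 6 per diet, adjusted p = 0.00151, 1.83-fold lower). The SD was 0.09 in low protein and 0.28 in control rats, and this difference in spread was not tested.

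Elovl2 lengthens the chains further, on the way to docosahexaenoate. Its level was 0.45, 1.26 and 1.66 in control rats and -0.17, 0.27 and 0.59 in low protein rats. Rats 1 (0.45) and 2 (0.66) were the lowest controls, and only control rat 1 lay within the low protein range. The log2 change was -0.88 ± 0.21 (SE, n = 6 per diet, adjusted p = 0.0296, 1.84-fold lower). Its adjusted p was the highest of the 4, and the call ended without any one of control rats 3, 4, 5 and 6 (adjusted p = 0.063, 0.0643, 0.0585 and 0.0565) or, on the low protein diet, rats 1, 2 and 3 (0.0601, 0.0644 and 0.0511), with log2 changes of -1.02 to -0.78 over all 12 single omissions.

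The arrays lay on 2 slides, with 4 rats of each diet on slide 1 and 2 of each on slide 2. On slide 1 the control rats lay in array row 1 and the low protein rats in row 2. On slide 2 the control rats lay in columns 1 and 2 and the low protein rats in columns 3 and 4. Within a slide, diet and array position thus cannot be told apart. The changes on slides 1 and 2 were -0.97 and -0.68 for Fads1, -1.13 and -0.49 for Fads2, -1.10 and -0.45 for Elovl2, and -0.89 and -0.78 for Elovl5. The direction was the same on both, and the changes of Fads2 and Elovl2 on slide 2, which carried rats 2 and 4 on the control diet and 5 and 6 on the other, were under those on slide 1 by more than 1.5 times. Without scaling between arrays, where the median change of all genes was 0.11, Fads2 was at -0.78 (adjusted p = 0.0729) and Elovl2 at -0.75 (0.134), and Fads1 and Elovl5 still passed.

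**Figure D2:**
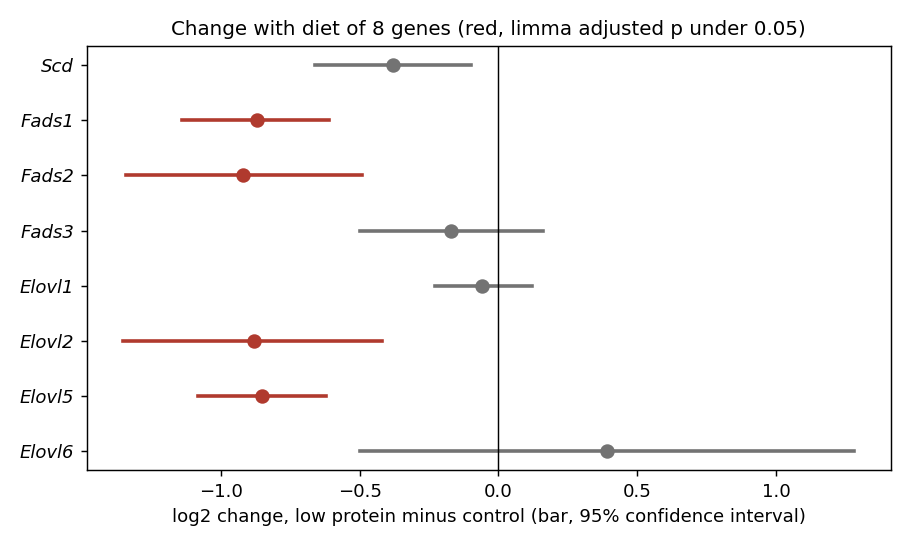
Points are log2 changes (low protein minus control, 6 rats per diet) of the 8 genes and bars their 95% confidence intervals, in red where the limma adjusted p was under 0.05. Fads1, Fads2, Elovl2 and Elovl5 lie between -0.92 and -0.85, and the interval of Scd lies below 0 although its adjusted p was 0.107.

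Scd, the liver's main delta-9 desaturase, had the brightest probe of the 8, with signals of 80100 to 129000 intensity units and no saturated spot. Its level was 6.48, 6.77 and 6.81 (lowest, median and highest) in control rats and 5.93, 6.27 and 6.73 in low protein rats. Low protein rats 3, 4, 5 and 6 lay below every control rat, and low protein rats 1 (6.73) and 2 (6.65) lay within the control range. Scd had a log2 change of -0.38 ± 0.13 (SE, n = 6 per diet) with an unadjusted p of 0.0127 in limma and an adjusted p of 0.107. At an unadjusted p under 0.05 Scd would be the fifth of the 8 genes, where 21.6% of all genes tested had such a p. The change was -0.24 on slide 1 and -0.66 on slide 2, and the adjusted p ran from 0.0509 to 0.193 without single rats.

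Elovl6, which adds carbons to palmitate, varied more between rats than any other of the 8 genes on either diet (SD 0.70 in control and 0.87 in low protein rats). Its brighter probe gave -1.04, -0.64 and 0.78 (lowest, median and highest) in control rats and -1.39, -0.05 and 0.98 in low protein rats, and the groups overlapped. The log2 change was 0.39 ± 0.41 (SE, n = 6 per diet, adjusted p = 0.642, 95% confidence interval -0.50 to 1.28). Slide 1 gave 0.08 and slide 2 gave 1.02.

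The 2 probes of Elovl6 ranked the rats alike but differed with diet. The dimmer probe was at -4.05 at the median of control rats and -3.97 at that of low protein rats, with a log2 change of -0.22 ± 0.37 (SE, n = 6 per diet, adjusted p = 0.795 in the fit of all probes). Between rats of one diet the probes had a Pearson r of 0.97 over 12 rats, which share arrays and RNA, as a description. The difference between the probes' changes was 0.61, with a two-sided exact permutation p of 0.00216, the smallest that 924 arrangements of 6 against 6 rats allow. This comparison was chosen after the values were seen. The dimmer probe gave 28.5 to 160 intensity units, and the difference was not examined under another background treatment. Probe sequences were not used here, so where the probes lie in the transcript is not given.

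**Figure D3:**
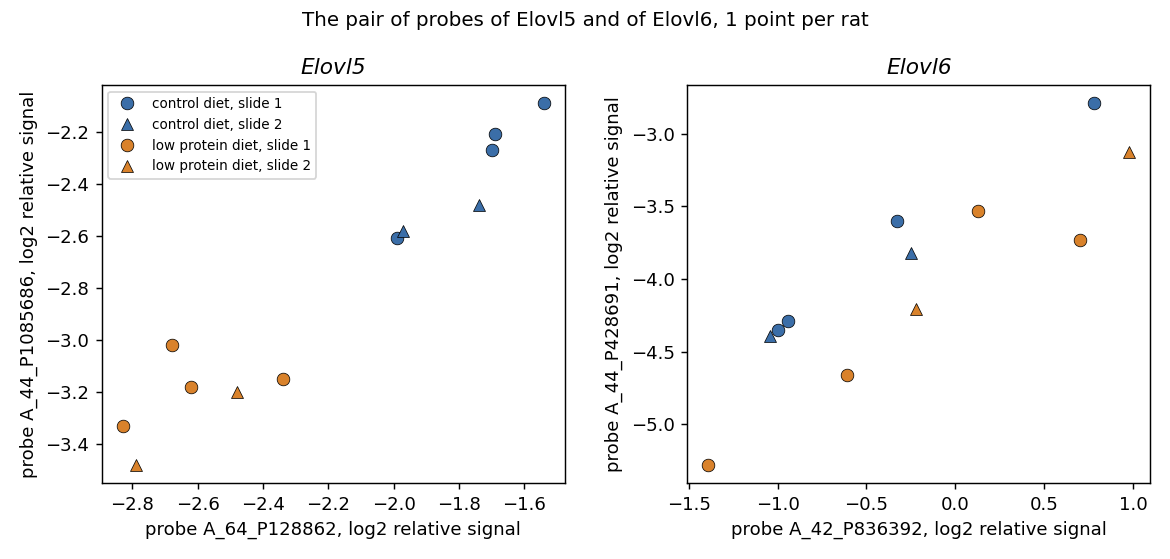
Each point is a rat, with the level on the brighter probe of a gene on the x axis and that on the dimmer probe on the y axis (log2 signal relative to the array's 75th percentile). For Elovl5 the diets are apart on both axes, and for Elovl6 the low protein points run to the right of the control points along a parallel line.

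Elovl1, which makes very long saturated chains for sphingolipids, hardly varied. Its level was 1.53 to 1.68 in control rats and 1.40 to 1.83 in low protein rats, with low protein rat 1 highest, and the groups overlapped. The log2 change was -0.06 ± 0.08 (SE, n = 6 per diet, adjusted p = 0.748, 95% confidence interval -0.23 to 0.12), and it was 0.08 without scaling and 0.06 in the deposited value table, so its sign depended on the scaling. Fads3, a member of the family that desaturates sphingoid bases, had a dim probe of 44.6 to 81.0 intensity units. Its level ran from -4.63 to -3.54 in control rats and from -4.43 to -4.14 in low protein rats, which lay within the control range. The log2 change was -0.17 ± 0.15 (SE, adjusted p = 0.571, 95% confidence interval -0.50 to 0.16). It was 0.00 in the deposited table, which is neither scaled nor background-subtracted.

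Whether the genes changed unequally was tested on the difference of 2 genes within each rat, which any common scaling of an array leaves as it is. All 28 pairs of the 8 genes were compared by a two-sided exact permutation test of 6 against 6 rats, chosen after the changes were known, with Benjamini-Hochberg adjustment over the 28. Of these, 14 had an unadjusted p under 0.05 and 3 an adjusted one. Fads1 fell by more than Elovl1, by 0.82 ± 0.15 on the log2 scale (exact p = 0.00216, adjusted p = 0.0202). Elovl5 also fell by more than Elovl1, and the difference was 0.80 ± 0.12 (exact p = 0.00216, adjusted p = 0.0202). Elovl5 fell by more than Scd as well, with a difference of 0.47 ± 0.11 (exact p = 0.00216, adjusted p = 0.0202). The differences of the 6 rats of a diet did not overlap with those of the other diet in these 3 pairs. The third of these calls ended without any one of control rats 3 (adjusted p = 0.0606), 4 (0.0606), 5 (0.0519) or 6 (0.0606), after normexp background correction (0.0758) and in the deposited table (0.0505).

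Among the 4 genes that fell, the 6 pairwise differences in change lay between -0.06 and 0.04, with exact p of 0.742 or more. Their 95% confidence intervals reached from -0.56 to 0.50 on the log2 scale, so differences within these bounds are not excluded by the data. The change of Fads1 less that of Fads2 was 0.04, with an interval of -0.24 to 0.32. On its brighter probe, Elovl6 and the genes that fell differed by 1.25 to 1.31 with exact p of 0.013 to 0.0368, and no such pair passed after adjustment (adjusted p of 0.0606 to 0.0859). The dimmer Elovl6 probe, whose change was -0.22 and so nearer to those genes, was not compared in this way.

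Fads1 and Fads2, neighbours on chromosome 1, also varied together between rats of one diet. With each diet's mean removed, Pearson's r over the 12 rats was 0.85 (permutation p = 0.00106, adjusted p = 0.0382) and Spearman's rho was 0.82 (permutation p = 0.00833, adjusted p = 0.207). The family was the 28 pairs of the 8 genes and the 8 pairs with Srebf1, 36 in all. Fads1 and Fads2 were the pair that passed by r, and none passed by rho. Without the 2 rats farthest from the median of Fads1, r was 0.80 over 10 rats (permutation p = 0.01, adjusted p = 0.222), so the call was lost without those rats. Among the 8 rats of slide 1 r was 0.71, and slide 2 held too few rats for a value. Elovl2 ran with both to a lesser degree, with r of 0.69 with Fads1 (rho 0.73, permutation p = 0.0474 and 0.0279) and 0.64 with Fads2 (rho 0.67, permutation p = 0.0455 and 0.0402), which failed the adjustment (0.25 for r and 0.207 for rho). Elovl5 had r of 0.11 with Fads1, 0.13 with Fads2 and 0.20 with Elovl2 (permutation p = 0.738, 0.696 and 0.543). Among the 36 pairs its highest r was 0.61, with Scd (permutation p = 0.0486, adjusted p = 0.25). Fads3 ran against Elovl2 with r of -0.79 (permutation p = 0.00638, adjusted p = 0.115, rho -0.75 with permutation p = 0.0159 and adjusted p = 0.207), and without 2 rats r was -0.56. Values of one rat share an array and its scaling.

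**Figure D4:**
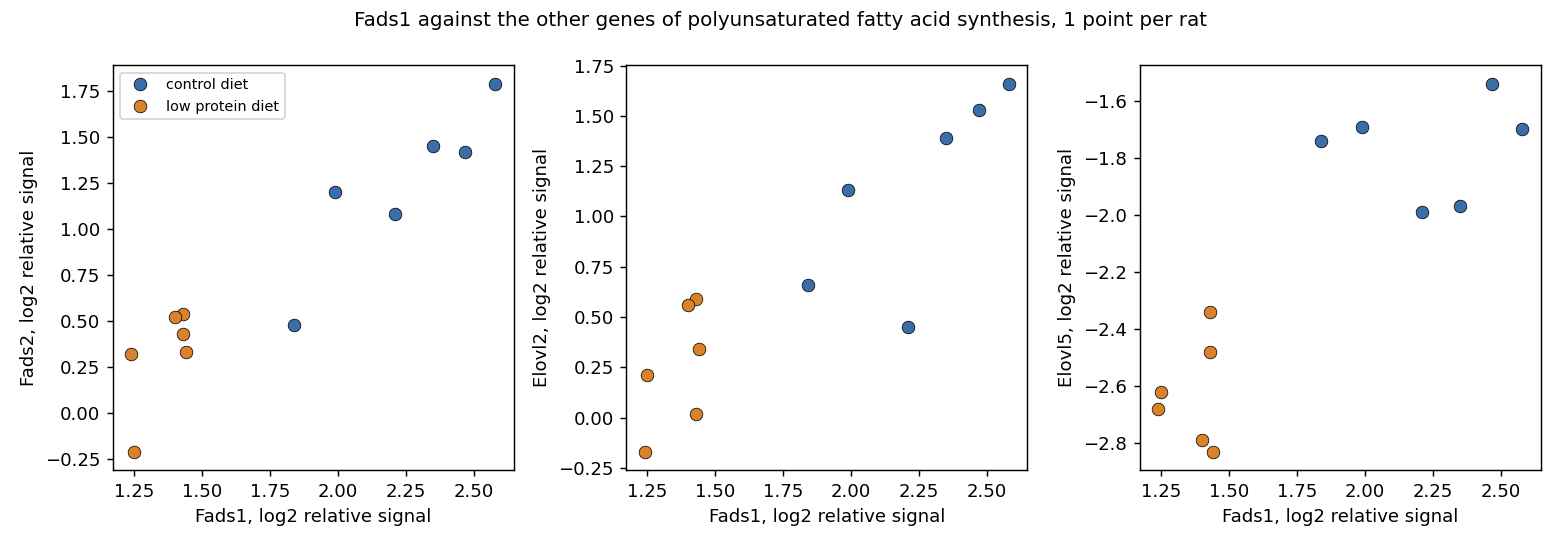
Each point is a rat, with Fads1 on the x axis and Fads2, Elovl2 or Elovl5 on the y axis (log2 signal relative to the array's 75th percentile). The low protein rats sit together at Fads1 levels of 1.24 to 1.44, and the control rats spread along the diagonal in the Fads2 panel. With each diet's mean removed, Pearson's r of Fads1 with Elovl5 was 0.11.

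Srebf1 encodes the transcription factor SREBP-1c. Its brighter probe was at 3.21, 4.14 and 4.39 (lowest, median and highest) in control rats and at 2.64, 3.18 and 3.94 in low protein rats, with overlap. The log2 change was -0.86 ± 0.25 (SE, n = 6 per diet), of the size of the genes above, with an adjusted p of 0.059. The other probe gave -0.94 ± 0.32 (adjusted p = 0.106 among all probes). In 19 of 25 alternatives Srebf1 stayed without a call, among them no scaling (adjusted p = 0.121), no filter on dim probes (0.141), slide as a block (0.07) and 10 of the 12 single omissions (up to 0.117). In the other 6 it passed, which were normexp (adjusted p = 0.0359), quantile normalization (0.0348), the deposited table scaled to the 75th percentile (0.0413), a trended robust spread (0.0495), and the omission of control rat 3 (-1.03, adjusted p = 0.0261) or low protein rat 1 (-1.01, adjusted p = 0.0269). Between rats of one diet, Srebf1 had an r of 0.35 with Fads1 (rho 0.43, permutation p = 0.287 and 0.174) and 0.30 with Fads2 (rho 0.65, permutation p = 0.342 and 0.0304, adjusted p = 0.77 and 0.207). With the other two genes that fell, r was -0.13 for Elovl2 (rho 0.03, permutation p = 0.707 and 0.926) and 0.03 for Elovl5 (rho -0.02, permutation p = 0.924 and 0.959). The highest r with Srebf1 was that of Elovl1, which did not pass the test of diet, at 0.61 (rho 0.47, permutation p = 0.0472 and 0.142, adjusted p = 0.25 and 0.522), and no pair with Srebf1 passed after adjustment.

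Of 21 transcriptional regulators of lipid synthesis, all measured, 3 fell and 0 rose, with a median of -0.11. Over all genes tested, 3.05% were lower and 3.48% higher, shares that also stand beside the lists that follow. Scap, the escort of SREBP proteins, was at -0.34 ± 0.07 (adjusted p = 0.0135) and Insig1, which holds that escort in the endoplasmic reticulum and is itself a SREBP target, at -1.84 ± 0.49 (adjusted p = 0.0436). The call of Insig1 held without low protein rat 1 and ended without any other single rat (adjusted p up to 0.0891). Scap did not pass without scaling (-0.21, adjusted p = 0.427).

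In the rest of the elongation cycle, the ketoacyl reductase, dehydratases and enoyl reductase, 0 of 5 measured genes passed by limma. An unadjusted p under 0.05 was found for 3 of the 5, beside 21.6% of all genes tested. The dehydratases Hacd2 and Hacd1 were at 0.56 ± 0.17 (adjusted p = 0.0657) and 0.29 ± 0.09 (adjusted p = 0.0727), and Hacd2, whose probe is dim, was at 0.00 after normexp and passed without low protein rat 1 (0.0202). Of 6 genes that bring electrons to desaturases 1 fell, Cyb5b, the cytochrome b5 of the outer mitochondrial membrane, at -0.49 ± 0.11 (adjusted p = 0.0248). That call ended without control rat 2, 3 or 5 or low protein rat 5 (adjusted p up to 0.0576). The others had no call, among them Cyb5a at -0.02 (adjusted p = 0.942) and Cyb5r3 at -0.43 (adjusted p = 0.154). The medians of these lists were 0.02 and -0.12.

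Of the desaturases and elongases outside the 8, 8 of 9 were matched to a probe and 3 passed the filter on dim probes. Degs1, which desaturates dihydroceramide, rose by 0.32 ± 0.08 (adjusted p = 0.0335), a call that held without control rat 2, control rat 5, low protein rat 3 or low protein rat 4 and ended without any other (up to 0.0788). Scd2, a relative of Scd, was at -0.23 ± 0.15 on its brighter probe (adjusted p = 0.417 among all probes) and -0.06 ± 0.28 on the other, and Fads6 was at -0.38 ± 0.15 (adjusted p = 0.156 among all probes). Elovl4 and Elovl7 were not well above background on any array.

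Of 10 genes that supply saturated chains, 3 were lower and 0 higher, with a median of -0.38. Acacb, an acetyl-CoA carboxylase, was 2.52-fold lower (-1.33 ± 0.13, adjusted p = 0.000113). The size for Acacb depended on the background treatment, at -0.67 after normexp and -0.78 in the deposited table, both called, and on slide 2 alone it had no call (-1.15, adjusted p = 0.231). Acaca, also an acetyl-CoA carboxylase, was at 0.50 (adjusted p = 0.385) and Me1 at 0.92 (adjusted p = 0.0524), both without a call. Fasn at -0.67 (adjusted p = 0.352) and Acly at -0.40 (adjusted p = 0.52) had no call either. The citrate carrier Slc25a1 was at -0.35 ± 0.09 (adjusted p = 0.0322), a call that ended without any one of control rats 1, 2, 3 and 5 or, on the low protein diet, rats 2, 3 and 5 (up to 0.0667).

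Genes that activate, bind or free acyl chains moved both ways, with 3 of 13 higher, 3 lower and a median of -0.02. The acyl-CoA synthetase Acsl3 was at -0.93 ± 0.15 (adjusted p = 0.00396) and the acyl-CoA binding protein Dbi at -0.61 ± 0.08 (adjusted p = 0.00106). The thioesterases Acot4 (1.08 ± 0.16, adjusted p = 0.00255) and Acot3 (0.98 ± 0.16, adjusted p = 0.00402) were higher, with Acot3 at 0.65 after normexp, and since these are related sequences, whether their probes share targets was not tested. Of 8 measured genes that place chains into phospholipids, Lpgat1 fell (-0.71 ± 0.12, adjusted p = 0.00461), 0 rose and the median was -0.15. Of 10 peroxisomal genes that finish docosahexaenoate 0 passed by limma and the median was -0.01. An unadjusted p under 0.05 was found for 3 of the 10, beside 21.6% of all genes tested. Pex5 was at -0.22 ± 0.08 (adjusted p = 0.118) and Scp2 at -0.19 ± 0.07 (adjusted p = 0.152).

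**Figure D5:**
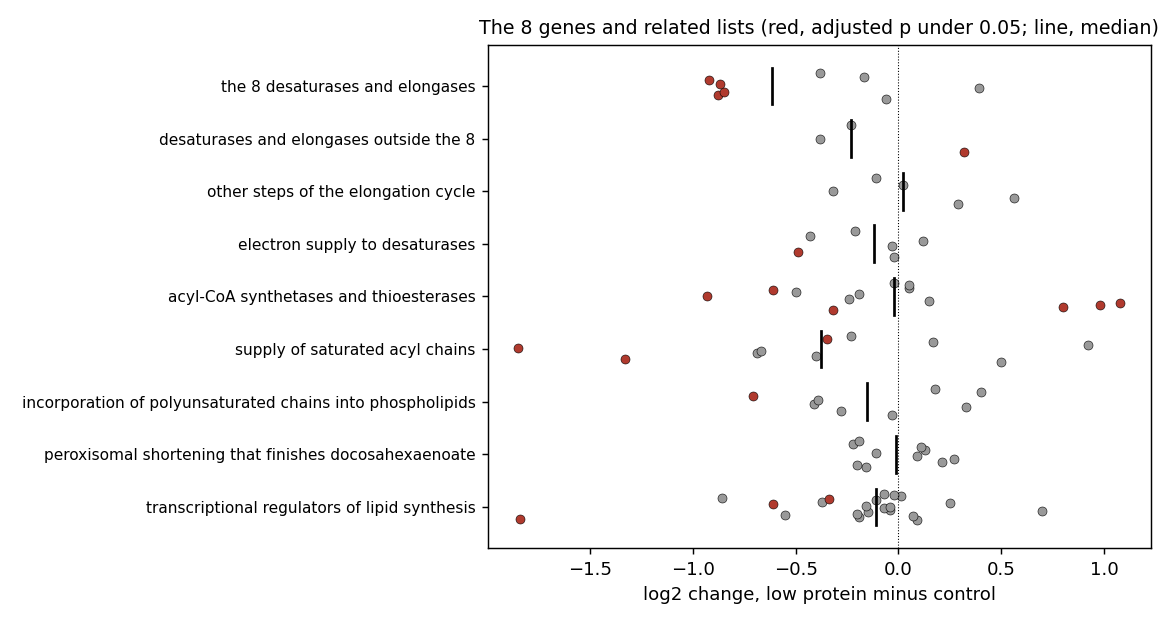
Points are log2 changes (low protein minus control, 6 rats per diet) of the measured genes of each list, red where the limma adjusted p was under 0.05, and lines are medians. The 8 desaturases and elongases, in the top row, have a median of -0.62, and the medians of the other lists lie between -0.38 and 0.02.

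Of the 58717 spots for transcripts on an array, 61.2% to 69.9% gave a signal well above background, and the 75th percentiles of signal lay between 942 and 1320 intensity units. Pearson correlations across genes were 0.987 to 0.992 between control arrays and 0.985 to 0.990 between low protein arrays. The number of arrays limits the precision, with a median SE of 0.13 for a log2 change. The labelled tissue was checked by 8 hepatocyte markers, of which all were measured and 1 changed, Apoa1 (-0.84 ± 0.14, adjusted p = 0.00387), while albumin, Alb, was at -0.20 ± 0.07 (adjusted p = 0.114). Of these 8, 7 had values below 0 and 4 an unadjusted p under 0.05, with a median of -0.17, and Tdo2 was at -0.54 ± 0.18 (adjusted p = 0.103) and Hpd at -0.43 ± 0.12 (adjusted p = 0.051). Summed over the list, hepatocyte markers were at 700 to 848 times the 75th percentile in control rats and 595 to 774 in low protein rats. Of 7 macrophage markers 0 passed and all 7 had values below 0 (5 with an unadjusted p under 0.05, median -0.37), with sums of 13.4 to 28.4 and 13.7 to 20.0. Beside these counts, 55.1% of all genes tested had a value below 0, 21.6% an unadjusted p under 0.05 and 6.53% a call. Of 3 measured lymphocyte markers Ptprc fell (-0.43 ± 0.11, adjusted p = 0.0291), with sums of 0.398 to 0.541 and 0.366 to 0.431. Of the measured markers of stellate (7), sinusoidal endothelial (4), bile duct (4) and erythroid cells (3) and adipocytes (2), 0 passed, and the adipocyte genes Adipoq, Plin1 and Lep did not pass the filter. The part of these cells in the results above was not tested.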

How the data were processed

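Per the file headers, the authors scanned single-colour Agilent arrays and processed them with Agilent Feature Extraction 12.0.3.1, and the deposited scanner files hold linear intensity values, processed and median, not scaled between arrays. The deposited value table equals the median intensity at 100% of spots, and each column matched a rat. The labels gave each rat's diet and number.

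Processed signals were put on the log2 scale and each array's 75th percentile was subtracted. Spots with an outlier mark (453 to 739 per array) were set missing, which removed no value of the 10 probes, and no spot was saturated. Probes were named through RefSeq accessions in a table of assembly GRCr8 (21215 of 45598 matched, to 16667 genes). A probe was kept if 5 or more arrays of either diet showed it well above background, and the brightest probe of a gene was tested. For probes with several spots this meant a majority of the spots, a rule picked from 7 forms because it gave an earlier count of genes tested. The 7 forms gave 21848 to 21893 genes tested and 1428 to 1429 changed, and the 8 genes have probes of 1 spot. Differences were tested with limma 3.58.1 in R 4.3.3 (lmFit and eBayes, two-sided, Benjamini-Hochberg over 21858 genes), after checks on simulated data. Every adjusted p is from limma over all genes, or over all probes where so stated, unless a permutation test is named. Permutation tests of correlations used 100000 resamples within diets. The 25 alternative fits covered background, scaling, the deposited table, filters, probes, spread, slide and rat number as blocks, single slides and each array left out. Figures used Python 3.11.15 and matplotlib 3.10.9.

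The genes and lists were chosen with earlier results of these data known. Genes named besides the 8 were Srebf1, in each related list up to 4 changed genes with the smallest adjusted p or, where none changed, up to 2 with the smallest p, and, for each of the 8 that changed, the 3 genes most correlated with it between rats. Scd2, Fads6, Elovl3, Elovl4, Elovl7, Acaca, Me1, Fasn, Acly, Cyb5a, Cyb5r3 and the markers named were added after their values were seen. Protein and probe sequences were not used here, and the values of 2 genes that the rule names are not reported here.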

Additional observations from a re-analysis of the deposited data

Results flagged for a closer look

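Of 56 sets of 6 rats examined for a rat far from the others, 3 had one, and chance alone gives about 5% of such sets. Low protein rat 3 had a Fads2 level of -0.21, apart from the next value of 0.32 by 0.705 of the group's range. Control rat 3 had a Srebf1 level of 3.21, with the next control at 3.98 (0.654 of the range). Low protein rat 1 had a Dbi level of 5.91, with the next low protein rat at 5.65 (0.781 of the range). Without low protein rat 3 the log2 change of Fads2 was -0.81 (limma adjusted p = 0.0285), and it ran from -1.07 to -0.81 over all single omissions, with adjusted p up to 0.0385.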

How the results depend on the processing

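Of the 25 alternatives, Scd and Elovl6 kept their direction and stayed without a call in all, Fads1 and Elovl5 kept direction and call in 24, Fads2 in 23 and Elovl2 in 13. For Elovl6 the direction was that of the brighter probe. The mean of its probes gave 0.09, and the dimmer probe alone, which was not among the alternatives, gave -0.22. Without scaling between arrays 892 genes changed (76.2% higher, against 53.3% of 1428), 2 of the 8 genes were lower, Fads2 (-0.78) and Elovl2 (-0.75) lost their calls and Elovl1 turned to 0.08. In the deposited table (81.2% of changed genes higher) Elovl2 was at -0.76 without a call, Elovl1 at 0.06 and Fads3 at 0.00. Without the filter on dim probes 618 genes changed among 39002 tested, and Elovl2 (-0.88, also as a probe) lost its call. Slide 1 alone gave 164 changed genes, and Elovl2 (-1.10) lost its call. Slide 2 alone, with 2 rats per diet, gave 12 changed genes (91.7% higher) and 0 of the 8, with Fads1 at -0.68, Fads2 at -0.49, Elovl2 at -0.45 and Elovl5 at -0.78. Leaving out single rats gave 856 to 1307 changed genes (856 without control rat 3), 3 or 4 of the 8 lower, and Elovl2 at -1.02 to -0.78. The correlation of Fads1 with Fads2 without 2 rats was 0.80. Hacd2 was at 0.00 after normexp. Of 450 values of 18 related genes under alternatives, 362 kept direction and call, 80 lost the call, 7 gained one and 1 turned sign. Apart from fewer rats or more genes tested, the causes were not tested.

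With rat number as a replicate block 1412 genes changed (680 higher, 732 lower), and no call among the 8 genes changed, Fads1 having an adjusted p of 0.00512. Elovl2 had an SE of 0.10 in place of 0.21 and an adjusted p of 0.00668 in place of 0.0296. The other genes that fell had a higher adjusted p with the block, though no higher SE. The SE was 0.09 in place of 0.12 for Fads1, 0.17 in place of 0.20 for Fads2 and 0.11 in both fits for Elovl5. Deviations of same-numbered rats correlated at 0.03 to 0.26 across genes, all above 0 and under 0.1 for rats 5. Differently numbered rats were not compared in this way, so these values cannot decide whether the numbers are pairs. The main fit did not take them as pairs.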

Other observations

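Elovl3, an elongase not among the 8 genes, was well above background in 2 rats, control rat 5 (-3.78) and low protein rat 5 (-5.32), while the median was -8.65 in control and -8.91 in low protein rats. Control rat 5 also had the highest Elovl6 (0.78) and the highest Fads2 (1.79) of the control rats, whereas low protein rat 5 was within its group for both (Elovl6 at -0.22 and Fads2 at 0.43).

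The genes whose 12 values, less their diet's mean, were most correlated with a gene that fell are given as a description, being the 3 highest of 11152 genes searched for each of the 4, so high values can come from the search alone. They were Plpp6 (Pearson r 0.90), Sri (0.86) and Taf5l1 (0.86) for Fads1. They were Paip2 (0.89), Ascc3 (0.87) and Ubxn2a (0.87) for Fads2, and Pdcd10 (0.96), C8h15orf61 (0.95) and H2ac25 (0.93) for Elovl2. For Elovl5 they were Magea14 (0.90), Cyp4b1 (0.86) and Akr1c3 (0.84). Of these 12 genes Akr1c3 alone changed with diet, with a log2 change of -1.49 (limma adjusted p = 0.000548).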
